A study of Mus musculus with 6 samples.

Results

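Activity-induced transcription factors were examined as 10 genes in the prefrontal cortex of aged mice, namely Fos, Fosb, Jun, Junb, Egr1, Egr2, Egr3, Egr4, Nr4a1 and Npas4. They were taken by symbol, with earlier results of these data known, and all 10 were found by Ensembl identifier among the 21006 genes of the table. The cortices came from wild type male mice of the C57BL/6 strain, labelled as 18 months of age, with 1 animal per sample. The titles of all 6 samples carry the text 17M, whose meaning is not given. Mice of the PND group (n = 3), a model of postoperative neurocognitive disorder, were anesthetized with 1.5% isoflurane for 30 min and had an exploratory laparotomy of 30 min, an operation in which the abdomen is opened and its organs are inspected. Lidocaine cream (2.5%) was put on the wound for 3 days, together with povidone iodine. The CON group (n = 3) had neither the anesthesia nor the operation, and it had no wound care, so that these parts of the treatment cannot be told apart. All mice, CON mice included, went through behavior tests that ended with the Barnes maze, a test of spatial memory. The maze was run over several days after the operation, and tissue was taken 30 min after its last test under deep isoflurane anesthesia. The authors report that PND mice took longer to find the target hole in that test. The treatment and the behavior shortly before sampling therefore cannot be told apart either.

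These genes belong to the immediate early genes, whose transcription starts within minutes of strong synaptic input or growth factor signals and needs no new protein. Calcium entry and kinase cascades act on factors already bound to the DNA, chiefly CREB at cAMP response elements (CRE) and SRF at CArG boxes, and the mRNAs that follow are short lived. Fos and Fosb proteins pair with Jun and Junb to form AP-1. Egr1, Egr2, Egr3 and Egr4 are zinc finger factors that share a GC-rich site, Nr4a1 is an orphan nuclear receptor, and Npas4 is a neuronal bHLH-PAS factor that responds to calcium. In cortex their mRNAs are commonly used as marks of recent neuronal activity.

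The 250 bases before the RefSeq start (GRCm38.p6) were available for 8 of the 10 genes, and the core site of the CRE, TGACG on either strand, was present in 7 of them, namely Fos, Fosb, Junb, Egr2, Egr4, Nr4a1 and Npas4. The stretches are shown because they carry the core of the element through which CREB acts on genes of this kind. The core site was found in 17.8% of all 32851 windows of this length. Egr2 had 5 windows in the table, which gave it more chances of a match than the other genes. Capitals mark the core site on either strand, and each stretch reads 5′ to 3′ on the strand of the gene. The whole Fos window is given, at chr12:85473640-85473889 (plus strand), with core sites that begin at positions -129 and -66 from the start. The Npas4 stretch, at chr19:4990131-4990155 (minus strand), holds 2 core sites in opposite directions that begin at -179 and -169. It lies in the first exon of the GENCODE transcript, whose start is 345 bases upstream of the RefSeq start. The Egr2 stretch is at chr10:67537797-67537818 (plus), that of Fosb at chr7:19310081-19310125 (minus) and that of Junb at chr8:84978830-84978874 (minus). The Egr4 stretch is at chr6:85513674-85513718 (minus), and that of Nr4a1 at chr15:101266757-101266801 (plus). Each of these shows 1 core site. The window of Egr4 holds core sites that begin at -177 and -109, that of Nr4a1 at -233, -213, -69 and -40, and the Egr2 window used here at -111 and -55, and the stretches show those at -109, -69 and -55. The RefSeq start of Nr4a1 was 12577 bases downstream of the first GENCODE start of the gene, and the RefSeq start behind the Egr2 window used here was 2394 bases downstream of that of Egr2.
Fos: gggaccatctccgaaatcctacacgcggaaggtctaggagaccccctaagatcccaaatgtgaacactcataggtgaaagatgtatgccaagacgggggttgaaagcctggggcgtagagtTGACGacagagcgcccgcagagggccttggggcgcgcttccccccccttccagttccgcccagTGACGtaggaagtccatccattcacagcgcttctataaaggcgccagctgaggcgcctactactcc
Npas4: ttcgaCGTCAcgggaTGACGtcgga
Egr2: ccatatatgggcagcgaCGTCA
Fosb: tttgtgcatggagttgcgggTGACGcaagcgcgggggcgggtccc
Junb: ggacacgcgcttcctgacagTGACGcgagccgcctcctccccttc
Egr4: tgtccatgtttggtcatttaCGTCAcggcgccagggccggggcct
Nr4a1: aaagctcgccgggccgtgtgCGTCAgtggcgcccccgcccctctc

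Other motifs were rarer in the same windows. The full CRE, TGACGTCA, was found in none of the 8 genes and in 1.55% of all windows, and the AP-1 site TGANTCA in none of the 8 and in 6.75% of all windows. The Egr2 stretch printed above begins with a CArG box, the site of SRF, which occurred in 1.47% of all windows. The site of the EGR proteins, GCGNGGGCG on either strand, was present in Fosb and Nr4a1 and in 4.70% of all windows. A TATA box, searched as TATAAA or TATATA on either strand, was present in Fos, Egr4 and Npas4 and in 15.6% of all windows. Jun had no match to any of these motifs in its window. The core site and the full CRE overlap by construction. The matches describe the sequence, and they do not show that a factor was bound in these samples.

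**Figure D1:**
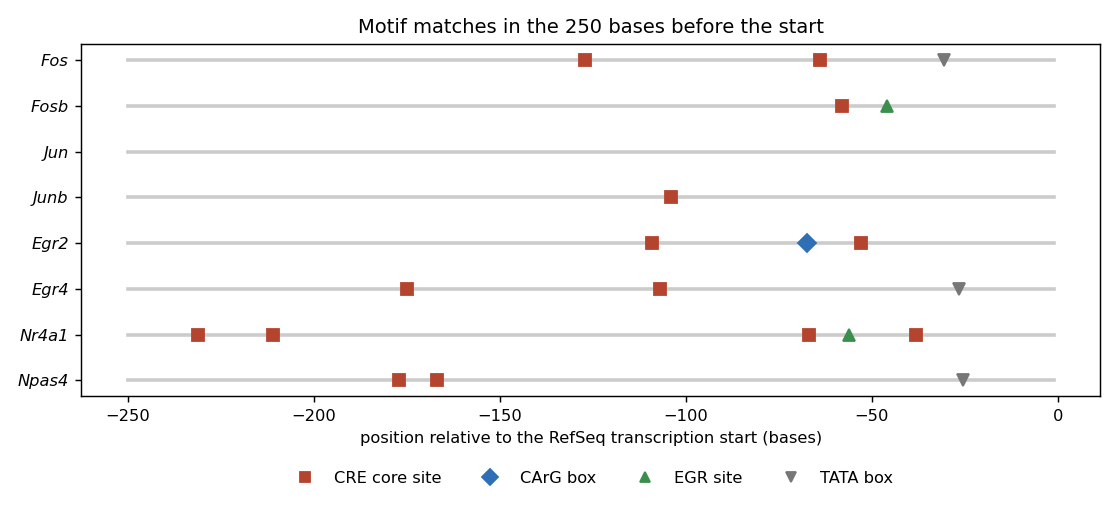
Positions of motif matches (symbols) in the 250 bases before the RefSeq start of 8 genes, with the distance from the start in bases on the horizontal axis and 1 line per gene. Red squares are CRE core sites and occur on 7 of the 8 lines, including -129 and -66 in Fos, while the Jun line carries no match; Egr2 is drawn from 1 of its 5 windows.

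The levels of the genes were compared as FPKM, which is per exon length, so that the genes could be ordered. Egr1 was the highest of the 10 in 6 of 6 samples, with a mean of 31.6 ± 7.56 FPKM (SD, n = 6), above 95.9% of all genes. Jun followed with 8.41 FPKM and lay above Nr4a1 in 5 of 6 samples. Nr4a1 (5.10 FPKM), Npas4 (4.94 FPKM) and Egr3 (4.43 FPKM) differed by less than their spread, since Nr4a1 was above Npas4 in 3 of 6 samples and Npas4 above Egr3 in 4 of 6. Egr3 was above Fos, the next gene, in 3 of 6 samples. Fos had 2.95 FPKM, Junb 2.11 FPKM, Fosb 1.79 FPKM and Egr2 1.26 FPKM, and of these neighbors Fosb was above Egr2 in 5 of 6 samples, Fos above Junb in 4 of 6 and Junb above Fosb in 3 of 6. Egr4 was the lowest in 6 of 6 samples at 0.215 FPKM. Egr1 alone made up 43.6% to 56.3% of the summed FPKM of the 10 genes.

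Compared with the CON group, 2 of the 10 genes were lower in the PND group at an unadjusted p below 0.05, Fos and Npas4, and none was higher. Of all 18185 genes tested, 1.40% were lower and 1.73% higher at that threshold. None of the 10 passed the cut-off of an absolute log2 fold change above 1 with an unadjusted p below 0.05, which 1.33% of all genes passed (241 genes). After Benjamini-Hochberg adjustment in limma none of the 10 had an adjusted p below 0.05, against 2 genes of the table (0.0110%). The 3 PND samples were all below the 3 CON samples in 3 of the 10 genes, Fos, Jun and Npas4, and none was above in all. Over all genes the groups were separated in the lower direction in 3.88% and in the higher direction in 3.78%. The log2 fold change was negative in 8 of the 10 genes against 47.6% of all genes, and its median was -0.18 against 0.01. Both values depended on single animals. Without CON replicate 1 all 10 genes were negative with a median of -0.51, against 52.6% and -0.02 for all genes. Without CON replicate 2 only 5 were negative with a median of 0.03, against 45.7% and 0.04 for all genes. The median was -0.27 without PND replicate 1, -0.28 without PND replicate 3, and -0.09 without PND replicate 2 or CON replicate 3. Without CON replicate 1 the number of the 10 genes lower at an unadjusted p below 0.05 was 4, and without CON replicate 2 it was 3. The genes of the whole table past the cut-off rose as well, from 241 to 345 and 388 in these fits. The share of all genes lower at that p alone was not counted for them, so the 4 and the 3 have no background beside them. The 10 genes share samples and are not independent of each other.

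Fos, the AP-1 partner most used to mark active neurons, was at 2.18, 2.17 and 2.05 FPKM in PND replicates 1 to 3 and at 3.73, 3.56 and 4.03 FPKM in CON replicates 1 to 3. The groups did not overlap, and the gap between them was wider than the range within either group. The means were 2.13 ± 0.0702 and 3.77 ± 0.240 FPKM (SD, n = 3 each). On the log2(FPKM + 0.1) scale the difference of Fos, PND minus CON, was -0.79 (SE 0.16, 95% interval -1.16 to -0.43, limma), with an unadjusted p below 0.05 and a Benjamini-Hochberg adjusted p of 0.787 over all genes. In an exact two-sided permutation test of the samples p was 0.1 for Fos, as for Npas4 and Jun, the smallest value that 3 animals against 3 can give. The gene lies at chr12:85473890-85477273 on GRCm38 and shares no exon sequence with another gene. Its values stood for an estimated 40 to 45 fragments in a PND sample and 66 to 68 in a CON sample. Counting error alone would then give a coefficient of variation of 15.1% in the PND group and 12.2% in the CON group, while the observed values were 3.29% and 6.35%. The replicates of Fos were thus closer to each other than the estimated fragment numbers would give.

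Npas4 was at 4.07, 3.74 and 3.64 FPKM in PND replicates 1 to 3 and at 4.89, 7.75 and 5.56 FPKM in CON replicates 1 to 3. All PND samples were below all CON samples, and CON replicate 2 stood highest. The means were 3.82 ± 0.224 and 6.06 ± 1.50 FPKM (SD, n = 3 each), and the spread was wider in the CON group. The log2 difference of Npas4 was -0.63 (SE 0.20, 95% interval -1.09 to -0.17, limma), with an unadjusted p below 0.05 and a Benjamini-Hochberg adjusted p of 1.0. The estimated fragments were 122 to 149 in a PND sample and 151 to 261 in a CON sample.

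In the other 8 genes the unadjusted limma p was above 0.05, the Benjamini-Hochberg adjusted p was 1.0, and the 95% interval from limma included 0. Among the other AP-1 genes, Jun was at 6.56, 7.65 and 7.62 FPKM in the PND samples and at 11.5, 7.93 and 9.15 FPKM in the CON samples. The groups were separated by the small step from 7.65 to 7.93 FPKM, and the log2 difference was -0.37 (95% interval -0.77 to 0.02). Without CON replicate 2 it was -0.50, with an unadjusted limma p below 0.05. An antisense gene, Junos, overlaps Jun on the opposite strand, and the use of strand in counting was not given; Junos had at most 0.301 FPKM in any sample. Fosb, a longer lived partner through its splice form delta FosB, was at 1.78, 1.42 and 1.70 FPKM in PND and at 0.960, 2.52 and 2.37 FPKM in CON. The PND samples of Fosb lay within the CON range, with a log2 difference of -0.14 (95% interval -0.99 to 0.72). It was -0.56 without CON replicate 1, with an unadjusted limma p below 0.05, and 0.09 without CON replicate 2. Junb, which often tempers the activity of Jun, was at 3.26, 1.03 and 2.14 FPKM in PND and at 0.870, 3.53 and 1.81 FPKM in CON. Its samples were mixed between the groups, and the log2 difference of 0.11 had a 95% interval of -1.19 to 1.41. Junb overlaps exons of Prdx2 on the opposite strand, and Prdx2 (5.61 to 13.4 FPKM) had its lowest sample in CON replicate 1 and its highest in CON replicate 2, as Junb did. Fosb, Egr3, Egr4 and Nr4a1, which share no exon sequence with another gene, had the same lowest and highest samples.

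Among the zinc finger genes, Egr1, which is well expressed in cortex without stimulation, was at 27.0, 28.5 and 32.4 FPKM in PND and at 21.5, 39.5 and 41.0 FPKM in CON. The PND samples lay between the lowest and the other CON samples, and the log2 difference was -0.16 (95% interval -0.74 to 0.42). It was -0.46 without CON replicate 1, with an unadjusted limma p below 0.05, but -0.02 without CON replicate 2 and 0.00 without CON replicate 3, both with an unadjusted p above 0.05. Egr2, known for its role in myelinating Schwann cells and induced in neurons too, was at 1.48, 1.07 and 0.982 FPKM in PND and at 1.28, 1.27 and 1.51 FPKM in CON. Only part of its PND samples were below the CON samples, with a log2 difference of -0.20 (95% interval -0.76 to 0.36). Egr3 was at 3.83, 1.61 and 7.07 FPKM in PND and at 1.51, 8.75 and 3.83 FPKM in CON. Both groups of Egr3 held a low, a middle and a high sample, and its log2 difference of -0.07 had the widest interval of the 10 genes (-1.71 to 1.57). Egr4 was at 0.105, 0.294 and 0.298 FPKM in PND and at 0.0621, 0.400 and 0.129 FPKM in CON, which corresponded to an estimated 1 to 7 fragments per sample. A difference in Egr4 could not be resolved at this depth (log2 difference 0.26, 95% interval -1.01 to 1.53).

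Nr4a1, an orphan receptor induced by calcium and cAMP signals, was at 5.39, 3.07 and 4.95 FPKM in PND and at 2.91, 9.28 and 5.00 FPKM in CON. The PND samples lay within the CON range, and the log2 difference was -0.24 (95% interval -1.21 to 0.73). Leaving out 1 animal turned the direction of Junb to -0.37 and of Egr4 to -0.09 (without CON replicate 1), and of Egr3 to 0.53 and of Nr4a1 to 0.18 (without CON replicate 2). The intervals of Fosb, Junb, Egr3, Egr4 and Nr4a1 reached below -0.9 and above 0.7, so that a difference as large as that of Fos would have lain within the interval of each of them.

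**Figure D2:**
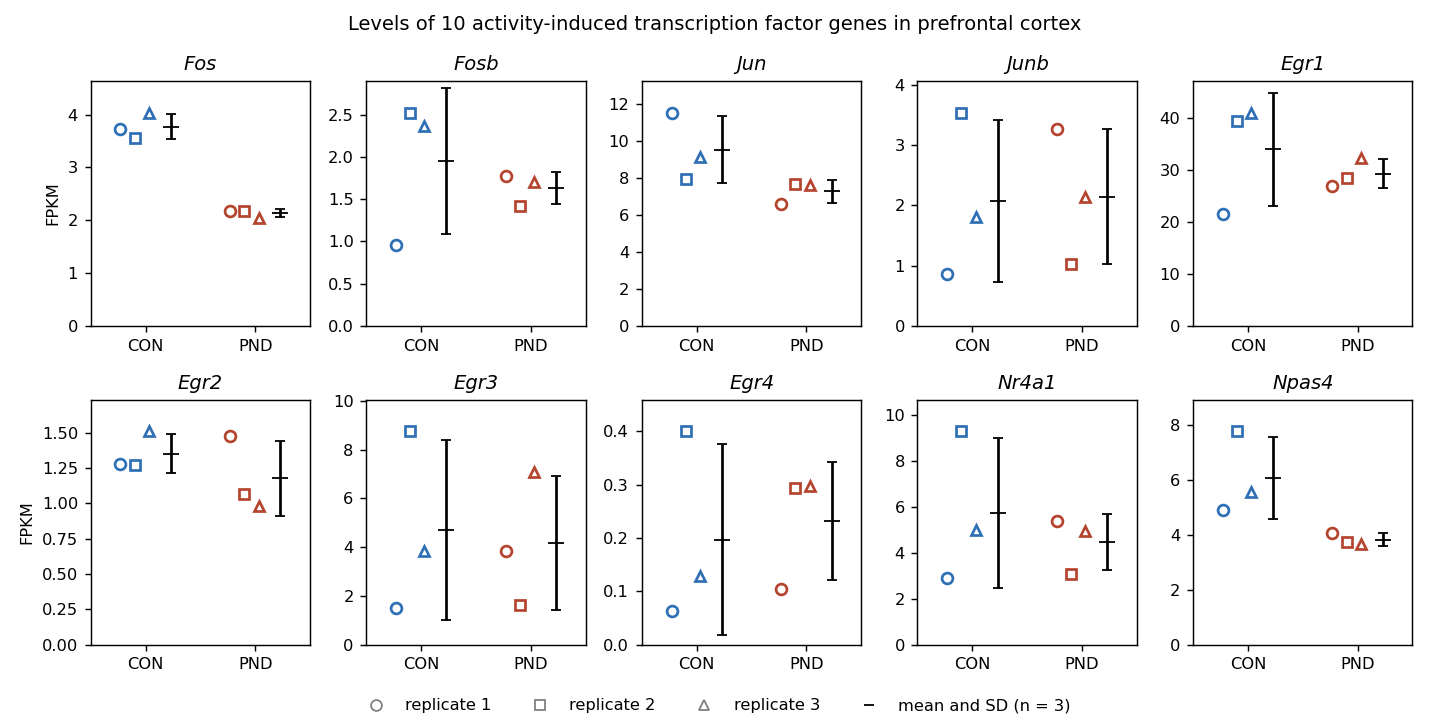
FPKM of the 10 genes in each sample (symbols, 1 per replicate) for the CON group in blue and the PND group in red, with the mean and SD of 3 samples in black; each panel has its own linear axis from 0. In Fos the PND samples (2.05 to 2.18 FPKM) lie apart from the CON samples (3.56 to 4.03 FPKM), the groups are also separated in Npas4 and Jun, and the other panels overlap.

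The genes did not vary alike between animals. CON replicate 1 was the lowest sample for 6 of the 10 genes, and CON replicate 2 was the highest for 6. The summed FPKM of the 10 genes was 49.2 in CON replicate 1 and 84.5 in CON replicate 2, and the PND samples at 55.6, 50.5 and 62.9 FPKM lay between these. This order rested on Egr1 at the low end. Without Egr1 the sum was lowest in PND replicate 2 at 22.1 FPKM, against 27.8 FPKM in CON replicate 1, and highest in CON replicate 2 at 45.0 FPKM. CON replicate 3 had 74.4 FPKM with Egr1 included. The ratio of Egr1 to Fos, computed per sample, was 12.4, 13.1 and 15.8 in PND and 5.76, 11.1 and 10.2 in CON, so that it was higher in all PND samples. The ratio of Fos to Npas4 was 0.535, 0.579 and 0.563 in PND and lay inside the CON range of 0.459 to 0.763. The other ratios computed, Fos to Fosb, Fos to Jun, Jun to Junb, Egr1 to Egr3 and Egr1 to Npas4, overlapped between the groups too. That of Egr1 to Fos was the only separated one, and it carries the separation of Fos itself, so it is not a further result. Across the 6 samples, Nr4a1 (r = 0.86), Fosb (r = 0.83), Npas4 (r = 0.79) and Egr1 (r = 0.78) followed the mean of the other 9 genes most closely. Fos (r = 0.39), Egr2 (r = 0.24) and Egr4 (r = 0.22) followed it less closely, and Jun had a weak negative correlation with it (r = -0.27). These are Pearson correlations over 6 points that share library, depth and base composition, and they are given as a description.

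The transcripts of these genes are GC-rich, with 51.3% to 68.2% GC and a median of 55.8%, against 47.7% for genes with at least 1 FPKM. Other genes of the same GC range deviated between the animals too. The median deviation of the 10 genes from the mean of the 6 samples was -0.60 in CON replicate 1, 0.61 in CON replicate 2 and 0.18 in CON replicate 3, and -0.07, -0.30 and 0.03 in PND replicates 1 to 3 (log2 scale). The median of 3783 other genes of the same GC range was -0.36, 0.32 and -0.03 in the CON samples and 0.09, -0.21 and 0.25 in the PND samples. When each sample was corrected by the median deviation of its GC bin, the median of the 10 genes became -0.11, 0.21 and 0.22 in CON and -0.16, -0.10 and -0.25 in PND. The median pooled SD within groups went from 0.46 to 0.32 and became smaller in 7 of the 10 genes, while that of genes with at least 1 FPKM went from 0.25 to 0.20.

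With this correction the log2 difference was -0.83 for Fos (95% interval -1.23 to -0.43, limma, Benjamini-Hochberg adjusted p = 0.701) and -0.70 for Npas4 (95% interval -1.07 to -0.33, adjusted p = 0.786). They were again the 2 of the 10 genes with an unadjusted p below 0.05, against 1.94% of all genes in the lower direction. The pooled SD rose in Fos from 0.07 to 0.19, in Egr2 from 0.22 to 0.26 and in Jun from 0.21 to 0.50. The close replicates of Fos were thus less close after the correction. The groups of Jun came to overlap, with a log2 difference of -0.44 (95% interval -1.19 to 0.30). Egr3 remained the most variable gene, with a pooled SD of 1.14 before and 1.01 after the correction. The direction of the difference did not change in any of the 10 genes, with 8 of them again negative against 48.3% of all genes, and their median became -0.24.

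**Figure D3:**
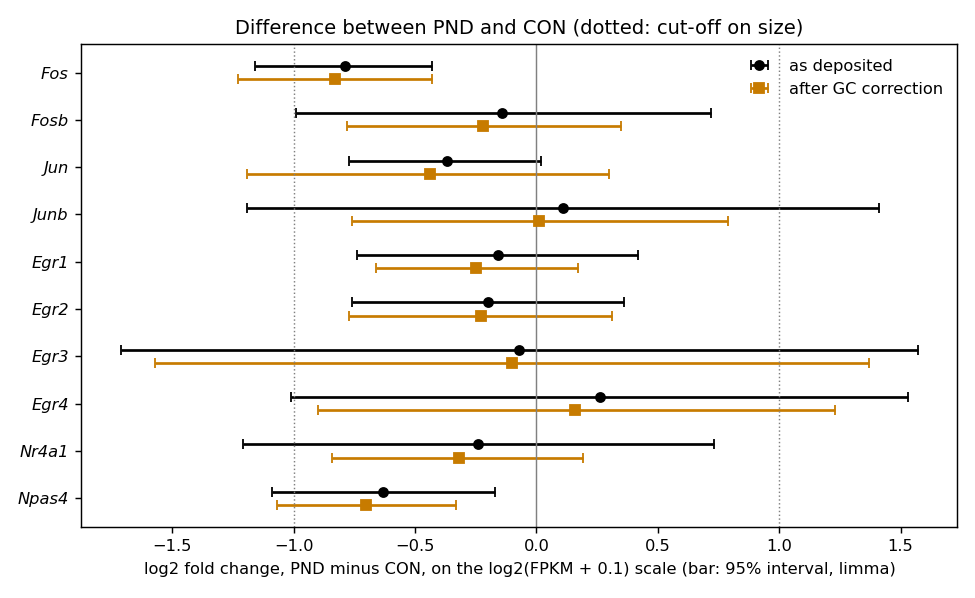
Log2 fold change of PND against CON (points) with its 95% interval from limma (bars) for the 10 genes, as deposited (black circles) and after the GC correction (orange squares), with 0 as a solid line and the size cut-off of 1 as dotted lines. The intervals of Fos (-1.16 to -0.43) and Npas4 (-1.09 to -0.17) lie below 0 with both sets of values, and those of the other 8 genes include 0.

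**Figure D4:**
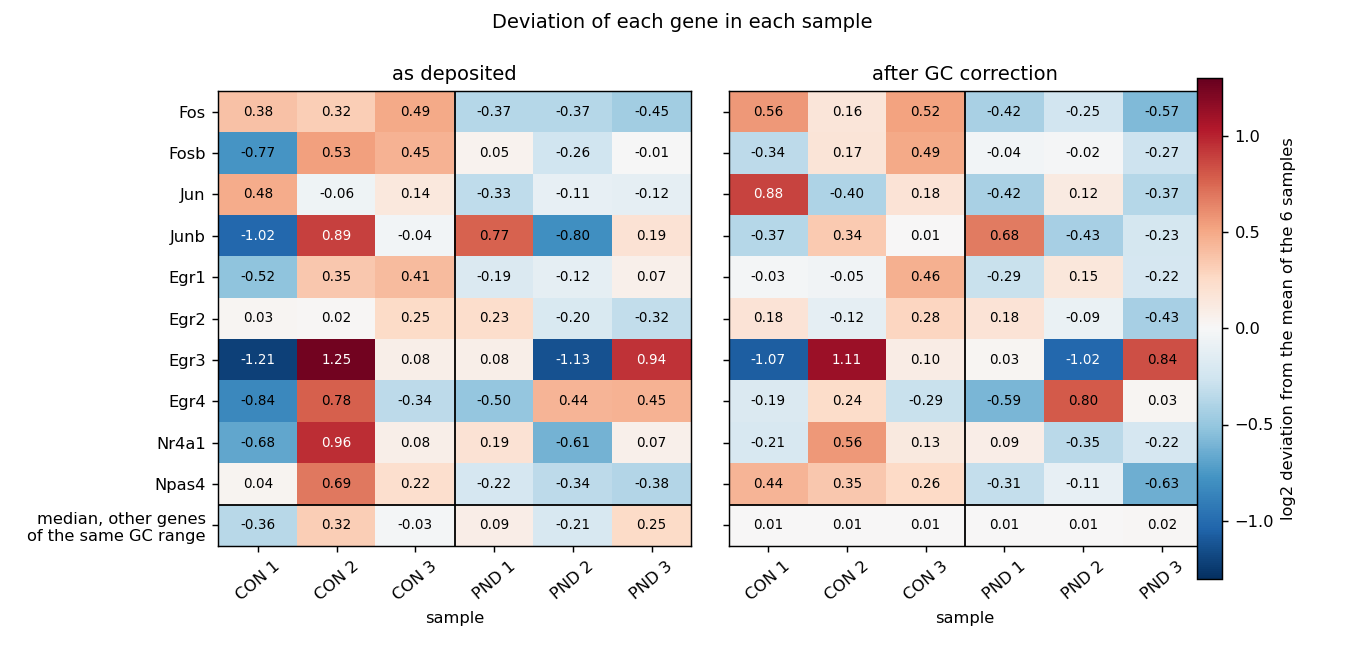
Log2 deviation of each gene from its mean over the 6 samples (color and printed value, red above and blue below), as deposited on the left and after the GC correction on the right, with the median of 3783 other genes of the same GC range as the bottom row. On the left CON replicate 1 is mostly blue (bottom row -0.36) and CON replicate 2 mostly red (bottom row 0.32). On the right the bottom row is 0.01 in both, since the correction sets it near 0 by construction. Some cells on the right move further from 0, as Jun does in both of these samples, while Fos and Npas4 keep red CON cells and blue PND cells.

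The genes around these factors were taken from 5 lists with 82 genes, of which 79 could be tested. None passed the cut-off, against 1.33% of all genes. At an unadjusted p below 0.05, 2 of the 79 were lower and none was higher, against 1.40% and 1.73% of all genes. A negative log2 fold change was found in 44 genes and a positive one in 35, with 47.6% of all genes negative, and the median was -0.04. The lists were other AP-1 and small Maf factors (7 tested, median -0.08), relatives and partners of EGR, NR4A and NPAS4 (9 tested, median 0.01), other early-response regulators (15 tested, median -0.04), activity-induced effectors such as synaptic and feedback proteins (22 tested, median -0.04), and the upstream kinases and factors that include Creb1, Srf and the Mapk genes (26 tested, median -0.03). Among the regulators, 1 of 15 was lower, and among the effectors 1 of 22. None of the upstream genes, of the AP-1 relatives or of the partner genes had an unadjusted p below 0.05. All 3 PND samples were below all CON samples in 7 of the 79 genes, and in none were they above, against 3.88% and 3.78% of all genes.

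The 2 lower genes were Btg2, an early-response gene that restrains proliferation, and Ccn1, a secreted matrix protein. Btg2 was at 3.54, 2.12 and 1.86 FPKM in PND and at 5.79, 4.12 and 4.92 FPKM in CON. The groups did not overlap, and the log2 difference of Btg2 was -0.99 (95% interval -1.61 to -0.37), while with the GC correction it was -1.01 and passed the cut-off. Ccn1 was at 1.06, 0.752 and 1.06 FPKM in PND and at 2.11, 1.52 and 2.20 FPKM in CON, or an estimated 12 to 32 fragments per sample. It was also separated between the groups and had a log2 difference of -0.95 (95% interval -1.54 to -0.36). Both had a Benjamini-Hochberg adjusted limma p of 1.0. The effector Arc, an activity-induced synaptic gene chosen here after seeing its values, was at 8.20, 5.11 and 8.28 FPKM in PND and at 3.03, 17.9 and 9.20 FPKM in CON. Its lowest and highest samples were CON replicates 1 and 2, as for the sum of the 10 factors. Without Egr1 the lowest sum of the factors was that of PND replicate 2. The log2 difference of Arc was -0.18 (95% interval -1.54 to 1.18).

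**Figure D5:**
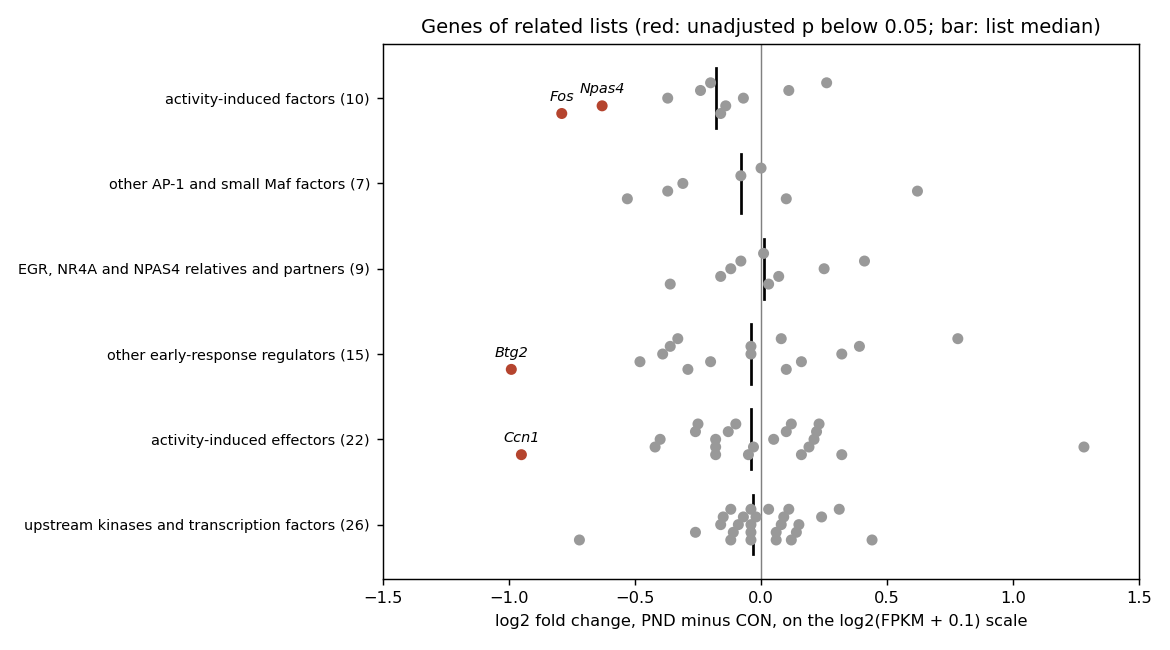
Log2 fold change of PND against CON for each gene (points) of the 10 activity-induced factors and of 5 related lists, with the number tested in parentheses and the list median as a bar; red points have an unadjusted limma p below 0.05. The 4 red points, Fos (-0.79), Npas4 (-0.63), Btg2 (-0.99) and Ccn1 (-0.95), all lie to the left of 0.

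The genes whose pattern over the 6 samples was most like the mean of the 10 factors were Nat10 (r = 0.996), Jmjd6, Ttl, Rgs10, Nudt2, Zbtb21, Cbln2, Rce1, Mpped1 and Bicd2 (r = 0.977), of 12314 genes with at least 1 FPKM and a symbol. The measure was Pearson's r of log2 values with the mean of the 10 factors, each scaled to the same SD. An r above 0.9 was reached by 173 genes, or 1.40%, whose median GC content of 51.2% was above the 47.7% of all candidates. Nat10, for example, was at 2.33, 1.98 and 2.32 FPKM in PND and at 2.15, 3.38 and 2.88 FPKM in CON, so that it too was highest in CON replicate 2.

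The marker genes of the tissue bear on how these levels can be read, since in bulk tissue fewer cells of a type and less RNA per cell cannot be told apart. All 5 pan-neuronal and all 7 excitatory neuron markers were above 0 in every sample. The summed excitatory markers were 232.3 to 300.1 FPKM in PND and 209.6 to 406.6 FPKM in CON, with CON replicates 1 and 2 again at the ends. The pan-neuronal sum was 688.5 to 792.9 FPKM in PND and 736.9 to 817.8 FPKM in CON. The 5 microglia markers, all above 0 in every sample, summed to 39.9 to 43.5 FPKM in PND and 43.7 to 48.6 FPKM in CON, and 1 of them, P2ry12, had a log2 difference of -0.76 (95% interval -1.25 to -0.27, limma). The 5 choroid plexus markers, 1 of which was above 0 in every sample, summed to 0.677 to 0.861 FPKM in PND and 0.453 to 0.664 FPKM in CON. Of the 5 astrocyte markers, Gfap had a log2 difference of 0.66 (95% interval 0.31 to 1.02, limma) and Aqp4 of -0.36 (95% interval -0.67 to -0.05), and their sum overlapped between the groups. The erythroid sum was 2.76 FPKM in PND replicate 1 and at most 0.191 FPKM elsewhere. The inhibitory, oligodendrocyte, endothelial and striatal sums overlapped between the groups. The part of these markers in the differences of Fos and Npas4 was not tested.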

How the data were processed

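Per the labels, total RNA of prefrontal cortex was sequenced from 6 mice, 3 per group. The authors removed ribosomal RNA, filtered reads with Seqtk, aligned them with HISAT2, counted fragments with StringTie, scaled them by TMM and deposited FPKM, 1 column per sample. The submitters' processing notes also name Bowtie 0.12.2 and the builds mm8 and mm9, without a role, and the use of strand is not given in the sources used here. The 10 genes and all lists were chosen with earlier results of these data known.

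Symbols were found for 20866 of 21006 identifiers, and GENCODE M21 (GRCm38) gave their coordinates, exon lengths and GC content. PND was compared with CON by limma 3.58.1 (R 4.3.3, lmFit and eBayes with trend) on log2(FPKM + 0.1) over the 18185 genes whose mean reached 0.1 FPKM, with no covariate, two-sided, and Benjamini-Hochberg adjustment over all of them. This scale understates the change of low genes. The fit was tested on simulated data. Depth was not given. Steps in FPKM times exon length gave an effective depth of 7211274 to 9383432 fragments per sample, with 41.6% to 44.8% of values from 0.5 to 20.5 fragments within 0.05 of a whole number, so fragment numbers are estimates. FPKM sums were 215640 to 240447, and mitochondrial genes took 30.4% to 38.8%. No 2 samples were identical (0 pairs). The GC correction subtracted the median deviation of 20 GC bins, set on 12323 genes.

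Promoter windows came from RefSeq (GRCm38.p6). Egr1 and Egr3 had none in the table. Genes named were the 10 factors, genes of the related lists past the cut-off or with an unadjusted p below 0.05, the 10 genes most like the mean of the factors, and markers. Arc was added after its values were seen, and Prdx2 and Junos because they overlap Junb and Jun. Of 82 related genes, 81 were in the table and 79 passed the filter. Alternatives covered the pseudocount, the filter, the scaling, the GC correction, a replicate block, voom on estimated fragments and leaving out each sample. The result of 1 further marker gene is not reported here.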

Additional observations from a re-analysis of the deposited data

How the results depend on the processing

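With all 6 samples kept, 131 of 131 fits of the 10 factors, Btg2 and Ccn1 under 11 alternatives kept their direction and their side of an unadjusted p of 0.05 (Egr4 was not tested at a mean of at least 1 FPKM). Fos ranged from -0.83 to -0.61 and Npas4 from -0.70 to -0.53 (log2). Of the 10 factors, 2 passed when an unadjusted p below 0.05 counted at any fold change. The number of genes past the cut-off, 241, became 2 with an adjusted p, 25 with a pseudocount of 1 and 59 at a mean of at least 1 FPKM. The related genes past the cut-off, 0 as reported, were 2 with a pseudocount of 0.01 and 1 with median centring, quantile normalization, the GC correction, the GC correction with the replicate block, and voom. Same-numbered samples of the groups deviated with r of -0.049, -0.451 and 0.027, so the numbers were not taken to pair animals. With the replicate block 226 genes passed the cut-off, and the same number of factors, 2, had an unadjusted p below 0.05, and these were again Fos and Npas4.

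Leaving out each sample in turn kept the direction of Fos (-0.83 to -0.75), Npas4 (-0.77 to -0.44), Jun (-0.50 to -0.23), Egr2 (-0.36 to -0.09), Btg2 (-1.26 to -0.81) and Ccn1 (-1.11 to -0.80), and the unadjusted limma p of Fos, Npas4, Btg2 and Ccn1 stayed below 0.05. The direction turned, or the value reached 0, in Fosb (-0.56 to 0.09), Junb (-0.37 to 0.58), Egr1 (-0.46 to 0.00), Egr3 (-0.70 to 0.53), Egr4 (-0.09 to 0.72) and Nr4a1 (-0.64 to 0.18). The median of the 10 factors ranged from -0.51 to 0.03. Between 2 and 4 factors had an unadjusted p below 0.05, and the share of all genes at that threshold was not counted for these fits. There were 4 without CON replicate 1, where Fosb (-0.56) and Egr1 (-0.46) were added, and without CON replicate 2 Jun was added (-0.50). The genes past the cut-off numbered 235 to 388, the highest without CON replicate 2, and the related genes past it 0 to 2. The causes were not tested. With 3 animals per group and an estimated 40 to 68 fragments for Fos in a sample, small differences in the lower genes could not be resolved.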
